A study of Mus musculus with 24 samples.

Results

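The comparison described here sets mesenchymal lung cells from irradiated mice given anti-Ly6G, an antibody to a neutrophil surface protein, against the same cells from sham-irradiated mice. It rests on 8 of the 24 libraries of the series, 4 in each group, and on the 16624 of 48795 gene identifiers that reached a normalised count of 10 in 4 or more of the 12 mesenchymal libraries. All mice were female Balb/c animals, 8 weeks old, and lungs were taken on day 7. The sham group (0 Gy) was given a control IgG antibody, and the depleted group received 13 Gy aimed at the lungs together with daily anti-Ly6G injections. Another mesenchymal group of 4 libraries had 13 Gy and the control IgG and is called irradiated. The design holds no sham mice with the anti-Ly6G antibody, so radiation and the antibody changed together in the comparison with sham. Cells were sorted as negative for CD45 (leukocytes), CD31 (endothelium), Ter119 (erythroid cells) and EpCAM (epithelium). The written sort protocol repeats CD45 in the place where the cell type entry has CD31. The design names 4 mice per group, which matches the 4 libraries of each fraction. A lung fraction sorted in this way can hold fibroblasts, smooth muscle cells, pericytes and mesothelial cells.

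Ionising radiation breaks DNA, and the breaks stabilise the transcription factor p53, which raises genes that halt the cell cycle, repair DNA or trigger cell death. Lung fibroblasts build the elastic and collagenous matrix of the alveolar wall and also sense injury, since cytokines acting through NF-kB and STAT3 make them secrete chemokines and acute-phase proteins. Neutrophils are short-lived phagocytes that enter injured lung along such chemokines, and Ly6G antibodies are used to remove them in mice.

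Recovered reads per library were 8951233 to 11408083 in sham and 8960347 to 9932700 in depleted mice, and the value that 3 reads give, the limit a count of 0 allows, was a normalised count of 2.48 to 3.07. Fibroblast transcripts were abundant in all 8 libraries, Col1a1 at 29776 to 41563 in sham and 28556 to 44929 in depleted libraries and Pdgfra at 19355 to 26969 and 19130.0 to 23288. Transcripts of cells outside the gate were present too. The 10 listed alveolar type 2 genes summed to 3458 to 7457 in sham and 6140 to 8933 in depleted libraries. The 7 listed alveolar type 1 genes summed to 3431 to 4118 and 3812 to 4820. Epcam stood at 1.01 to 18.3 in sham and 13.5 to 29.7 in depleted libraries, Ptprc (CD45) at 107 to 314 and 171 to 390.5, and Pecam1 (CD31) at 157 to 465 and 359.5 to 648. Ly6g had a value of 2.70 or less in each of the 8 libraries, which is 0 to 3 reads, so in this CD45-negative sort it does not check the depletion. In bulk samples such as these, fewer cells of a type and less RNA per cell cannot be told apart.

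In the mesenchyme of depleted mice, 2528 genes (15.2%) differed from sham at an adjusted p under 0.05, 1415 of them higher (8.51%) and 1113 lower (6.7%). The change was at least 2-fold for 480 of the higher and 110 of the lower genes. The 4 and 4 libraries did not overlap for 3214 genes (19.3%), and the median over all tested genes was -0.01 on the log2 scale. The 12 largest rises included Saa3, Lcn2, Cxcl5 and Cxcl13, and the 12 largest falls included Ptpn5, Camk2a and Slco5a1. Leaving out sham replicate 3 gave 1571 genes and leaving out depleted replicate 1 gave 1660. The mean pan-epithelial marker level did not overlap between the groups (3.77 to 4.50 in sham and 4.79 to 5.36 in depleted libraries, log2 scale). With that level as a covariate 152 genes were called, and a covariate whose values separate the groups cannot be told apart from the groups.

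Several acute-phase genes, which the liver and injured tissues switch on in inflammation, stood among the largest rises. Saa3 (ENSMUSG00000040026, GRCm38 chromosome 7, start 46711998, end 46715700), which codes for an inflammation-induced serum amyloid A, had normalised counts of 28.4, 36.4, 46.4 and 72.3 in the 4 sham libraries and 5572, 3729, 4486 and 9347 in the 4 depleted ones. That is a 126-fold rise of the mean (log2 6.94 ± 0.510 SE, adjusted p = 2.96e-05). The lowest depleted library was far above the highest sham library, and the 4 irradiated libraries lay between them at 109 to 485. Lcn2 (ENSMUSG00000026822, GRCm38 chromosome 2, start 32384633, end 32388252), which codes for lipocalin 2, a protein that withholds bacterial siderophores, went from 29.4, 20.7, 15.1 and 16.6 to 1320.0, 643, 1177 and 2616 (log2 5.93 ± 0.531, adjusted p = 7.73e-05). Depleted replicate 4 was the highest library for both genes, and no library of a group reached into the other. Saa1, a liver-type serum amyloid A, had 2 reads in all sham libraries together and values of 46.1, 54.0, 63.8 and 253 in depleted libraries. Reads may be split between Saa1 and its near-identical neighbour Saa2. The ratio of means was 206 with a counting interval of 56.7 to 1706, and the interval covers counting error only. Haptoglobin, Hp, which binds free haemoglobin, stood at 87.2, 113, 114 and 101 in sham and 973, 731, 1004 and 2399 in depleted libraries (log2 3.46 ± 0.417, adjusted p = 0.00055).

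The antiprotease genes Serpina3n and Serpina3m and the pentraxin Ptx3 belonged to the same end of the range. Serpina3n (ENSMUSG00000021091, GRCm38 chromosome 12, start 104406729, end 104414329), a secreted inhibitor of serine proteases, was the most abundant of them, at 1092, 1207, 1213 and 1387 in sham and 15825, 11115, 13418 and 26807 in depleted libraries (log2 3.70 ± 0.346, adjusted p = 0.000102). Its sham libraries lay within a narrow band, whereas depleted replicate 4 was more than 2-fold above depleted replicate 2. Serpina3m, a neighbouring gene of the same cluster with a similar sequence, went from 37.7 ± 9.25 to 581 ± 239.9 (SD, n = 4), and reads may be shared among members of this cluster. Ptx3 (ENSMUSG00000027832, GRCm38 chromosome 3, start 66219910, end 66225805), a soluble pattern recognition molecule that fibroblasts make in response to interleukin 1, rose from 44.6, 58.7, 42.4 and 58.2 to 1321, 1164, 481 and 1243 (log2 4.25 ± 0.360, adjusted p = 3.88e-05). Depleted replicate 3 was the lowest depleted library for Ptx3 and was still far above the highest sham library.

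**Figure D1:**
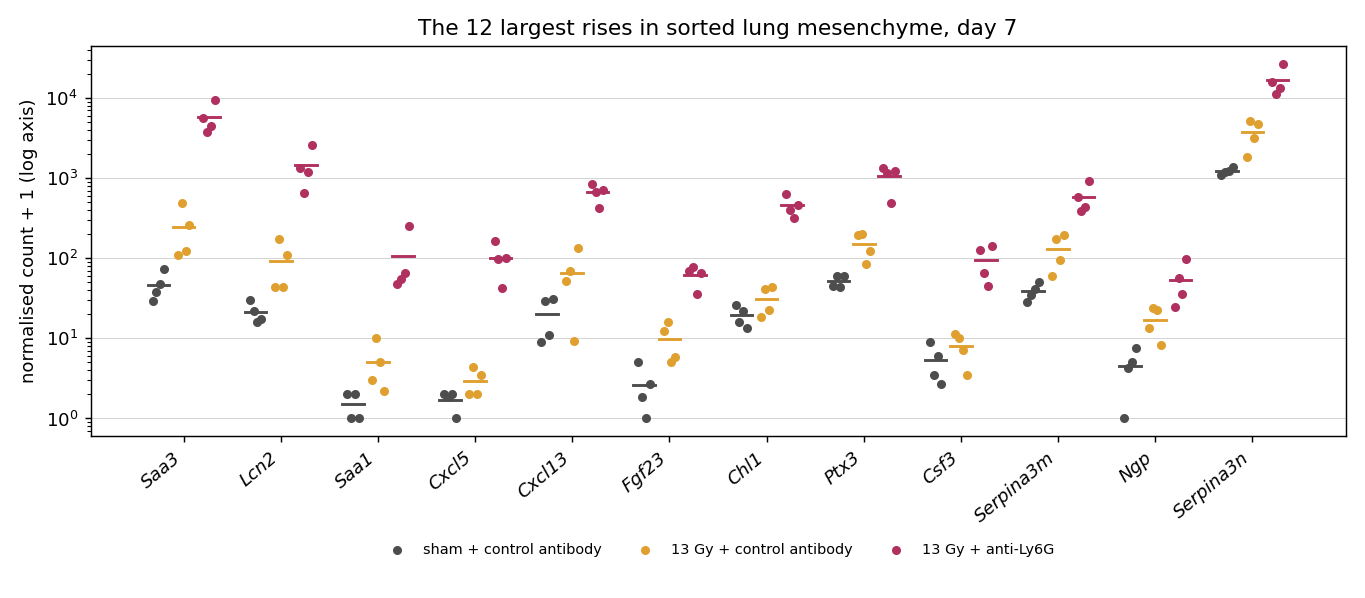
Normalised count plus 1 (log axis) of the 12 genes with the largest rises, in 4 sham, 4 irradiated and 4 depleted mesenchymal libraries; points are libraries and short lines are group means. For each gene the depleted points sit above all sham points, as for Saa3 (28.4 to 72.3 in sham, 3729 to 9347 in depleted libraries).

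Among chemokine ligands, Cxcl5, which draws neutrophils through the receptor CXCR2, was close to absent in sham mice, with 3 reads over the 4 libraries. It had values of 163, 97.2, 41.6 and 98.8 in the depleted libraries, a ratio of means of 140.4 (counting interval 47.7 to 684; adjusted p = 1.08e-06). Cxcl13, which attracts B cells, rose from 8.11, 28.1, 10.1 and 29.9 to 852, 668, 428 and 705 (log2 5.21 ± 0.761, adjusted p = 0.00175). Both genes were far above sham in every depleted library. Cxcl1, another CXCR2 ligand, was abundant already in sham at 1818, 1501, 1309 and 1415 and reached 3772, 3446, 4275 and 4999 (log2 1.44 ± 0.121), and Cxcl2 of the same family rose by 2.00. The monocyte attractant Ccl7 went from 106, 113, 85.8 and 117 to 542, 381, 518 and 561 (log2 2.23 ± 0.134, adjusted p = 5.44e-08). Its relative Ccl2 rose less, by 0.72 ± 0.162. Cxcl12, the niche chemokine that retains leukocytes and stem cells, rose from 1436 ± 70.5 to 2920.2 ± 802.

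Several cytokine genes were higher too, and of those described here Csf3 differed from sham by the most. Csf3, which codes for the granulocyte colony-stimulating factor that drives neutrophil production, had 8.11, 2.48, 5.05 and 1.66 in sham and 125, 63.9, 43.5 and 139 in depleted libraries (log2 4.15 ± 0.482, adjusted p = 5.34e-05). The irradiated libraries, at 2.44 to 10.3, covered about the same values as sham. Il6 rose from 1671, 1576, 1341 and 1262 to 3082, 2834, 3692 and 4074 (log2 1.22 ± 0.115), and Lif, a cytokine of the same family, from 272 ± 46.3 to 879.9 ± 338. Il33, an alarmin stored in the nuclei of adventitial fibroblasts and epithelial cells, went from 208, 211, 230.2 and 250.3 to 1341, 1087, 701 and 1028 (log2 2.17 ± 0.179, adjusted p = 9.08e-06). Even the lowest depleted library, replicate 3, was more than 2-fold above every sham library. Ptgs2, the inducible enzyme of prostaglandin synthesis, rose by 1.78 ± 0.119 (adjusted p = 4.19e-07). On the receiving side the interleukin 1 receptor Il1r1 rose from 1400.2 ± 64.9 to 2650.2 ± 394, and the feedback inhibitors Tnfaip3 (A20) and Nfkbia (IkB alpha) rose by 0.96 ± 0.144 and 0.62 ± 0.0719. Fgf23, the phosphate-regulating hormone, was also among the 12 largest rises, with 4.06, 0.827, 0 and 1.66 in sham and 68.7, 76.5, 34.8 and 63.5 in depleted libraries (log2 4.74 ± 0.494, adjusted p = 1.52e-05).

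Of the 36 listed inflammatory cytokines and NF-kB targets, 33 were tested, 28 rose and 0 fell, against 8.51% and 6.7% of all genes, and the median log2 difference was 0.98. The 5 tested members without a call were Il1b (-0.15), Vcam1 (0.11), Nfkbiz (0.19), Cxcl10 (0.48) and Tnf (0.50). Ccl20, Csf2 and Il1rl1 were under the limit on low values. With the pan-epithelial covariate 8 members were called higher. For the genes named next, the value divided by the summed pan-epithelial markers of the same library was higher in the mesenchymal than in the epithelial fraction of depleted mice. The sort removes EpCAM-positive cells, so the divisor itself differs between the fractions. Sham libraries were not compared in this way, and the source of the RNA was not tested. For Saa3 this ratio was 4.25 to 12.7 in the mesenchymal and 0.0132 to 0.0274 in the epithelial libraries, for Serpina3n 12.7 to 36.5 and 0.0240 to 0.0626, and for Ptx3 0.857 to 2.09 and 0.00270 to 0.00406. For Lcn2 it was 0.733 to 3.57 and 0.146 to 0.223.

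NF-kB binds a short DNA element, the kappaB consensus, and the stretches that hold it in promoters of 5 members described above are shown because these genes rose together. The letters are from RefSeq (GRCm38.p6), read 5′ to 3′ on the strand of the gene, ending at or before the gene start, with matches to the consensus in capitals.
Cxcl1: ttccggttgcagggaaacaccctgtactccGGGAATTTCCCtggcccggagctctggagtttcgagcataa
Cxcl2: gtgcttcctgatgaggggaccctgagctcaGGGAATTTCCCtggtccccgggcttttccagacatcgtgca
Il6: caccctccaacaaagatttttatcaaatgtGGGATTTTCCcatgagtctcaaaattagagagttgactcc
Nfkbia: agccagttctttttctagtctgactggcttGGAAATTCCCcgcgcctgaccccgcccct
Tnfaip3: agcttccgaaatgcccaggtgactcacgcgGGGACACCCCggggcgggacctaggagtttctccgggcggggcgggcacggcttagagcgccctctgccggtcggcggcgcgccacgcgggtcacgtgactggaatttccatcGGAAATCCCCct
These lie at chr5:90891144-90891214 (Cxcl1), chr5:90903772-90903842 (Cxcl2), chr5:30013040-30013109 (Il6), chr12:55492648-55492706 (Nfkbia, minus strand) and chr10:19015411-19015565 (Tnfaip3, minus strand). Cxcl1 and Cxcl2 share the same run of capitals, which holds 2 overlapping matches, and Tnfaip3 holds 2 separate ones. Over windows from 250 bases before to 50 after the gene start, on both strands, the consensus matched in 13 of 27 members with a listed promoter (48.1%) and in 708 of 11100 tested genes (6.38%). The list was made of known inflammatory genes and NF-kB targets, so this share does not test what raised them in these data. Among the 12 largest rises the consensus matched in 1 of 9 genes with a listed promoter (11.1%). A match is a description of letters and not a measured binding site.

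Complement, the protease cascade that marks and lyses targets, had 12 of 24 tested members higher (50%) and 1 lower (4.17%). The median was 0.60, and the shares over all genes were 8.51% and 6.7%. Cfb, the protease precursor of the alternative pathway, went from 594, 635, 638 and 745 to 3555, 2752, 3215 and 3331 (log2 2.30 ± 0.0982, adjusted p = 1.09e-09). C3, the central component, was among the most abundant transcripts of the list and rose from 23418 ± 2547 to 57721 ± 8176 (log2 1.30 ± 0.114). The terminal component C6 rose from 90.5 ± 8.43 to 292 ± 61.7, and C4b of the classical pathway by 1.02 ± 0.140. Cd55, which codes for a membrane protein that dismantles the C3 convertase, was the member that fell, from 338, 350.0, 374 and 424 to 171, 202, 227 and 154 (log2 -0.98 ± 0.145, adjusted p = 0.000431). No sham and depleted library overlapped for any of these 5 genes. The count of higher members was 7 with the pan-epithelial covariate.

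Targets of p53 formed another large group of rises. Cdkn1a (ENSMUSG00000023067, GRCm38 chromosome 17, start 29090976, end 29100727), the gene of p21, an inhibitor of cyclin-dependent kinases, had 571, 761, 598 and 541 in sham and 3382, 2945, 2823 and 3892 in depleted libraries, a 5.28-fold rise (log2 2.40 ± 0.121, adjusted p = 2.07e-08). Eda2r, the ectodysplasin A2 receptor of the TNF receptor family, rose from 108, 98.5, 99.9 and 101 to 431, 479, 512 and 550.3 (log2 2.26 ± 0.0929, adjusted p = 1.09e-09). Replicates were tight on both sides for these 2 genes. Ckap2, a spindle protein gene, went from 6.09, 9.10, 4.04 and 4.99 to 53.3, 39.6, 46.4 and 70.6 (log2 2.94 ± 0.284), and Psrc1, also of the spindle, from 13.5 ± 7.14 to 59.9 ± 4.01. The stress cytokine Gdf15 rose by 1.85 ± 0.174, the p53 ligase Mdm2 by 0.91 ± 0.0863, the apoptosis effector Bax by 1.12 ± 0.130 and cyclin G1, Ccng1, by 1.03 ± 0.115. In total 26 of 35 p53 targets rose (74.3%, against 8.51% over all genes) and 0 fell. The median was 0.91, and 7 were called with the pan-epithelial covariate.

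Promoter stretches of 4 of these p53 targets that match the p53 decamer consensus are shown for the same reason, in the same notation.
Cdkn1a: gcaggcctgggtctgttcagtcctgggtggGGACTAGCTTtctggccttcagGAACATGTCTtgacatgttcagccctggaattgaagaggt
Mdm2: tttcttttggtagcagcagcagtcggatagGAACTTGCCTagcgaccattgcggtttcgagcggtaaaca
Ccng1: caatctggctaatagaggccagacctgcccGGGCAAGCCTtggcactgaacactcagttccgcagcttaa
Bax: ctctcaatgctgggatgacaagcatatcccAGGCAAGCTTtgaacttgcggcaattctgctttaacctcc
Their positions are chr17:29090876-29090967 (Cdkn1a), chr10:117710905-117710974 (Mdm2, minus strand), chr11:40755432-40755501 (Ccng1, minus strand) and chr7:45467060-45467129 (Bax, minus strand). The decamer matched in the same window in 11 of 27 p53 targets with a listed promoter (40.7%) and in 921 of 11100 tested genes (8.30%). These genes were listed as known p53 targets, so this share does not test what raised them. Among the 12 largest rises the decamer matched in 2 of 9 genes with a listed promoter (22.2%). In Cdkn1a the window holds 2 separate matches, and in the other 3 promoters it holds 1.

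**Figure D2:**
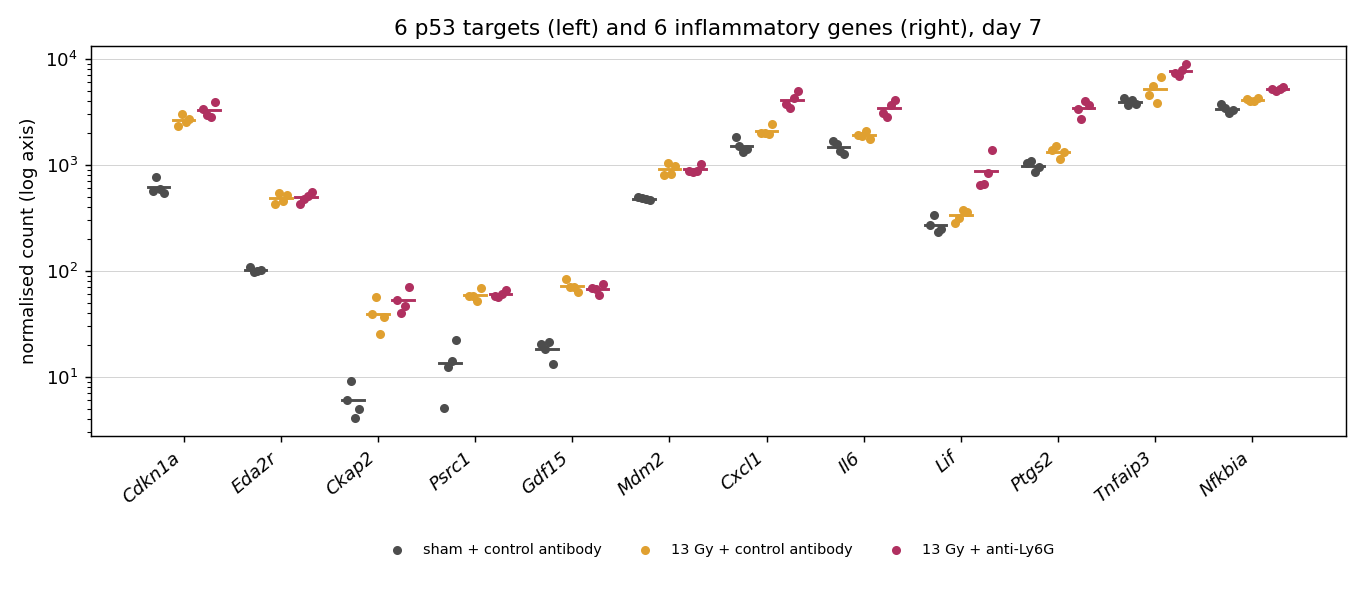
Normalised counts (log axis) of 6 p53 targets on the left and 6 inflammatory genes on the right in sham, irradiated and depleted mesenchymal libraries; points are libraries and short lines are means. Depleted libraries lie above sham for all 12 genes, for Cdkn1a at 2823 to 3892 against 541 to 761.

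The irradiated group shows which of these levels differed between the 2 irradiated groups. The comparison of depleted with irradiated mice uses the same 4 depleted libraries, and it called 448 of 16624 genes (2.69%), 336 higher and 112 lower. Among inflammatory genes 19 of 33 were higher in depleted than in irradiated mice and 0 lower, while among p53 targets 2 of 35 were higher and 0 lower. Cdkn1a stood at 2335 to 3051 in irradiated libraries, and depleted minus irradiated was 0.29 ± 0.121 (adjusted p = 0.221). For Eda2r the difference was 0.02 ± 0.0929 (adjusted p = 0.922). Saa3 was higher by 4.73 ± 0.510 (adjusted p = 0.00146), Cxcl5 by 5.02 ± 0.458, Cxcl13 by 3.81 ± 0.761, Lcn2 by 4.04 ± 0.531 and Il33 by 2.09 ± 0.179. Il33 was near its sham level in irradiated libraries, at 190.3 to 300.2. The count of 448 was 182 without depleted replicate 1, 198 without depleted replicate 4, 218 without irradiated replicate 3, 262 without irradiated replicate 4, 291 with these 2 groups alone, 785 with DESeq2 and 806 without depleted replicate 3.

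Glucocorticoid-responsive genes, which adrenal steroids induce through the receptor Nr3c1, had 12 of 18 tested members higher (66.7%) and 1 lower (5.56%). The median was 1.23, and over all genes the shares were 8.51% and 6.7%. The metallothioneins Mt1 and Mt2, which bind zinc and scavenge radicals, are members here and in the oxidative stress list. Mt2 went from 408, 359.9, 357 and 400.0 to 3493, 2774, 1821 and 4349 (log2 2.96 ± 0.215, adjusted p = 9.08e-06) and Mt1 from 1112 ± 108 to 4041 ± 1156. Fkbp5, a chaperone of the glucocorticoid receptor, was at 187, 202, 144 and 175 in sham and at 1008, 983, 373 and 1848 in depleted libraries (log2 2.36 ± 0.500, adjusted p = 0.0123). Depleted replicate 3 was the lowest and replicate 4 the highest for Fkbp5 and for Mt2, with a wider spread for Fkbp5. Ddit4, a stress inhibitor of mTORC1, rose by 2.37 ± 0.193. Tsc22d3 (log2 1.46 ± 0.460, adjusted p = 0.0628) and Zbtb16 (1.66 ± 0.520, adjusted p = 0.0603), both classic targets, did not pass the test although their groups did not overlap. Nr3c1 itself fell from 2853 ± 190.1 to 1934 ± 229 (log2 -0.57 ± 0.0873, adjusted p = 0.000493). Of 28 oxidative stress genes 11 rose (39.3%, against 8.51% over all genes), 7 without depleted replicate 1. Among the rises were Sod2, the mitochondrial superoxide dismutase and also an NF-kB target, by 1.42 ± 0.131, and Hmox1, the haem oxygenase, by 0.99 ± 0.152. The glutathione transferase Gsta4 was the member that fell, and of the fits without 1 library only those without depleted replicate 3 or sham replicate 2 had a lower member.

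Clock genes, whose feedback loop times daily rhythms, had 7 of 21 members higher (33.3%) and 2 lower (9.52%). Over all genes the shares were 8.51% and 6.7%, so the share that fell was near that of all genes. The repressors Per2 and Per3 rose by 1.27 ± 0.132 and 0.90 ± 0.201, with Per2 at 259, 168, 186 and 199 in sham and 548, 479, 404 and 524 in depleted libraries. The output factors Tef and Nfil3 rose by 0.74 and 0.84. The activators Arntl (-0.44 ± 0.112, adjusted p = 0.0156) and Clock (-0.31 ± 0.0775, adjusted p = 0.0141) fell, and both calls ended without sham replicate 3 (adjusted p = 0.0599 and 0.0542) and with the leukocyte covariate (0.095 and 0.0784). With the GC and length trend removed Clock had a log2 difference of -0.18 (adjusted p = 0.0885), which also ended its call. The hour at which lungs were taken is not given in the sources used here.

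**Figure D3:**
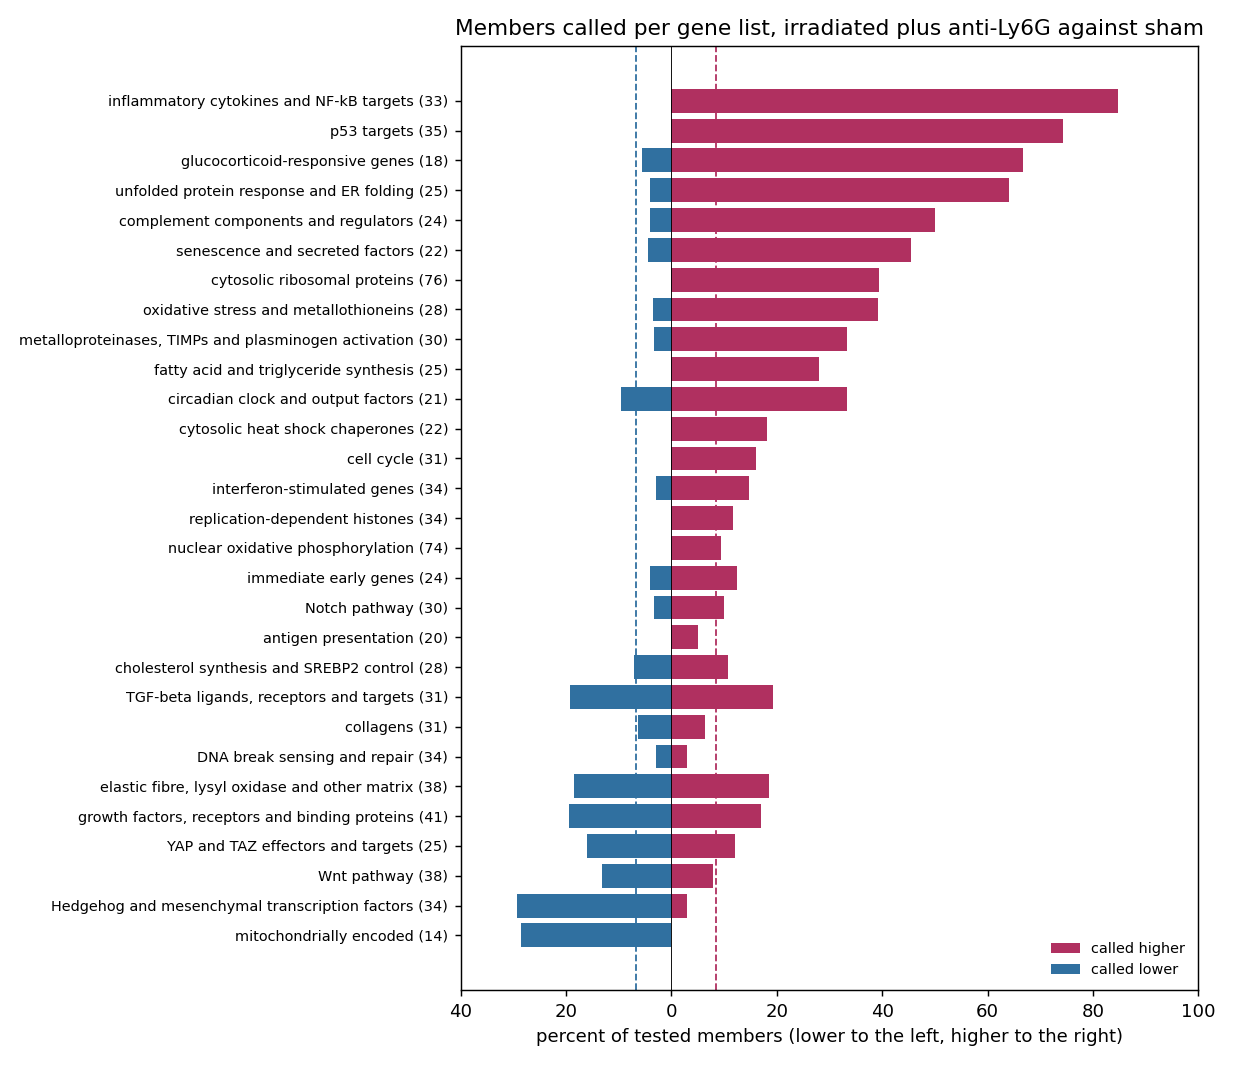
Percent of tested members called higher (right) and lower (left) in each of 29 gene lists, with the number tested in parentheses; dashed lines mark 8.51% and 6.7%, the shares over all tested genes. Inflammatory genes (28 of 33) and p53 targets (26 of 35) have the longest bars to the right.

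Genes of protein folding in the endoplasmic reticulum rose by small steps. Of 25 tested members of the unfolded protein response 16 rose (64%) and 1 fell (4%), against 8.51% and 6.7% over all genes. The median was 0.34, and 10 rose without depleted replicate 1 or 4. Hspa5 (BiP), the main chaperone of the compartment, rose from 4374 ± 410.3 to 6378 ± 1234 (log2 0.53 ± 0.119), the cochaperone Hyou1 by 0.68 ± 0.127, the secreted survival factor Manf by 0.74 ± 0.125 and Sdf2l1, a cofactor of BiP, by 1.12 ± 0.210. Pdia6, a disulphide isomerase, went from 876, 815, 1004 and 1088 to 1407, 1231, 1375 and 1488 (log2 0.54 ± 0.0860, adjusted p = 0.000585). Asns, the asparagine synthetase of the amino acid response, rose from 8.67 ± 3.01 to 30.6 ± 9.40. Ddit3 (CHOP), the factor that promotes death under prolonged stress, was the member that fell, by 0.43 on the log2 scale (SE 0.0942, adjusted p = 0.00615). Of 76 cytosolic ribosomal protein genes 30 rose (39.5%, against 8.51% over all genes) and 0 fell, with a median of 0.22. The called rises were led by the p53 target Rps27l (0.74) and included Rps26 (0.48), Rpl41 (0.42) and Rpl32 (0.41). Reads of ribosomal protein genes may be shared with their processed pseudogenes. The ribosomal count was 9 without sham replicate 3, 10 without depleted replicate 1, 13 without sham replicate 1, and 19 without sham replicate 2, without depleted replicate 3 or after removal of the trend on GC content and gene length.

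Matrix genes split into both directions. Of 38 elastic fibre, lysyl oxidase and other matrix genes 7 rose and 7 fell (18.4% each, against 8.51% and 6.7% over all genes). Lox, the enzyme that cross-links elastin and collagen, rose from 2646, 2731, 3595 and 3996 to 7829, 6007, 5705 and 12586 (log2 1.26 ± 0.246, adjusted p = 0.00643), with depleted replicate 4 the highest. The secreted phosphoprotein gene Spp1 rose by 1.32 ± 0.332. Loxl4, a paralog of Lox, rose by 0.88 ± 0.121 and the proteoglycan versican, Vcan, from 1909 ± 52.3 to 3344 ± 466. Elastin, Eln, the substrate of Lox, fell from 17543, 23224, 20986 and 27267 to 14894, 16686, 14807 and 15857 (log2 -0.50 ± 0.139, adjusted p = 0.024). The Eln call ended without depleted replicate 1 or sham replicate 2 or 4 (adjusted p = 0.0685, 0.0536 and 0.0662). Mfap5, a microfibril protein that stabilises elastic fibres, fell by 1.02 on the log2 scale (SE 0.213, adjusted p = 0.00868). Of 31 collagens 2 rose and 2 fell, near the shares over all genes. The basement membrane pair Col4a1 and Col4a2, which share a promoter region, rose by 0.62 ± 0.112 and 0.66 ± 0.115. Col6a3 and Col13a1 fell, but neither was called without depleted replicate 1 or 4 or sham replicate 3 or 4, and without sham replicate 1 only Col13a1 was (adjusted p up to 0.0889 without 1 library). The fibrillar collagens Col1a1 (0.12 ± 0.210, adjusted p = 0.766) and Col3a1 (0.47 ± 0.182, adjusted p = 0.0965) did not pass the test.

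Matrix turnover genes were mostly higher where they moved. Of 30 metalloproteinases, TIMPs and plasminogen genes 10 rose (33.3%) and 1 fell (3.33%), against 8.51% and 6.7% over all genes. Without depleted replicate 3 the number that fell was 3. Timp1, a secreted inhibitor of metalloproteinases that inflammation induces, had 205, 266, 178 and 203 in sham and 1174, 983, 1121 and 1491 in depleted libraries (log2 2.48 ± 0.144, adjusted p = 2.53e-07). Timp3, a matrix-bound inhibitor, fell from 18984 ± 677 to 11960.1 ± 1979 (log2 -0.68 ± 0.116, adjusted p = 0.00115). The stromelysin Mmp3 rose by 1.02 ± 0.110 and the aggrecanase Adamts4 by 1.32 ± 0.193. Serpina3g, an intracellular protease inhibitor of the Serpina3 cluster counted in the same list, rose by 2.57 ± 0.268. Of 22 senescence genes 10 rose (45.5%, against 8.51% over all genes). Cdkn1a, Timp1, Il6, Cxcl1 and Gdf15 were among the rises, and these members also stand in other lists. Igfbp3 fell, and of the fits without 1 library only that without depleted replicate 1 had a lower member. Igfbp4, an IGF carrier, rose from 4224, 4149.7, 4737 and 4830.4 to 12583, 9694, 12196 and 11749.9 (log2 1.36 ± 0.103, adjusted p = 7.4e-07), with no overlap and tight replicates.

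Growth factor and TGF-beta genes were called in both directions at shares above those over all genes (8.51% higher and 6.7% lower). Ereg (epiregulin), a ligand of the EGF receptor, rose from 28.4, 19.0, 26.2 and 16.6 to 148, 105, 106 and 170.3 (log2 2.50 ± 0.223, adjusted p = 3.29e-06), and the receptor Egfr rose from 1363 ± 94.0 to 2764 ± 481 (log2 1.00 ± 0.115, adjusted p = 4.87e-05). Of 41 growth factors, receptors and binding proteins 7 rose (17.1%) and 8 fell (19.5%), and 5 fell without sham replicate 1. Of 31 TGF-beta genes 6 rose and 6 fell (19.4% each), and 3 fell without sham replicate 3. The type 2 receptor Tgfbr2 rose by 0.65 ± 0.100 and Lrrc32 (GARP), which tethers latent TGF-beta, by 0.70 ± 0.125, the activin subunit Inhbb by 1.45 ± 0.244, while the ligand Tgfb3 fell from 2172 ± 157 to 1242 ± 345 (log2 -0.84 ± 0.193). Sfrp1, a secreted Wnt antagonist, rose from 336, 509.7, 421 and 545 to 1339, 869, 1329 and 1231 (log2 1.40 ± 0.173), while the ligand Wnt2 and the receptor ligase Znrf3 fell by 0.84 and 0.60 on the log2 scale. The YAP and TAZ target Ccn1 (Cyr61), a matricellular protein, fell from 16725, 14553, 16684 and 18632 to 8242, 7382, 11531 and 6383 (log2 -1.02 ± 0.154, adjusted p = 0.000567). Of 38 Wnt genes 3 rose (7.89%, near the share over all genes, and 5 genes with DESeq2) and 5 fell (13.2%). Of 25 YAP and TAZ genes 3 rose (12%) and 4 fell (16%). Without sham replicate 3 the falls were 3 and 2, and without depleted replicate 4 they were 3 and 1. Without sham replicate 1 the YAP and TAZ falls were 1, and without depleted replicate 3 the rises were 5. The Notch ligand Dll1 rose by 1.62 ± 0.243. Of 30 Notch genes 3 rose (10%, near the share over all genes) and 1 fell (3.33%). Rbpj, the Notch effector, fell, and of the fits without 1 library only those without depleted replicate 3 (2 genes) and depleted replicate 4 (1 gene) had a lower Notch gene.

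Falls of at least 2-fold were fewer than such rises. Ptpn5 (ENSMUSG00000030854, GRCm38 chromosome 7, start 47077795, end 47133684), which codes for the phosphatase STEP, had 156, 146, 151 and 131 in sham and 30.7, 48.6, 43.5 and 15.1 in depleted libraries (log2 -2.17 ± 0.298, adjusted p = 0.000344). Both Camk2a and Camk2b, subunits of the calcium and calmodulin-dependent kinase II, fell. Camk2a went from 57.8, 57.1, 58.6 and 63.2 to 14.3, 24.3, 35.8 and 11.1 (log2 -1.56 ± 0.271) and Camk2b from 79.2 ± 9.36 to 32.4 ± 9.79 (log2 -1.30 ± 0.229). Ryr3, a calcium release channel, went from 238, 156, 240.3 and 249 to 77.9, 99.0, 111 and 49.4 (log2 -1.42 ± 0.234), and the transporter Slco5a1 from 265 ± 38.1 to 97.5 ± 28.7. The scaffold gene Cass4 fell by 1.41, the sulphotransferase Chst8 by 1.23 and the secreted C1q-related proteins C1qtnf3 and C1qtnf2 by 1.42 and 1.34 on the log2 scale. Sertad4, Fam189a2 and Ccdc42 fell by 1.45, 1.35 and 1.33 on the same scale. Depleted replicate 4 was the lowest library for Ptpn5, Camk2a, Camk2b and Ryr3, and depleted replicate 3 was the highest for Camk2a and Ryr3. Camk2a (-1.06, adjusted p = 0.0478), Ryr3 (-1.06, adjusted p = 0.0315), Slco5a1 (-0.84, adjusted p = 0.0293), Cass4 (-1.09, adjusted p = 0.015) and Chst8 (-1.04, adjusted p = 0.00177) were also lower in depleted than in irradiated mice. Plekha6 fell by 1.30 on the log2 scale, and its call ended without depleted replicate 1 or sham replicate 1, 3 or 4 and with the 2 groups alone (adjusted p up to 0.0825 without 1 library).

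**Figure D4:**
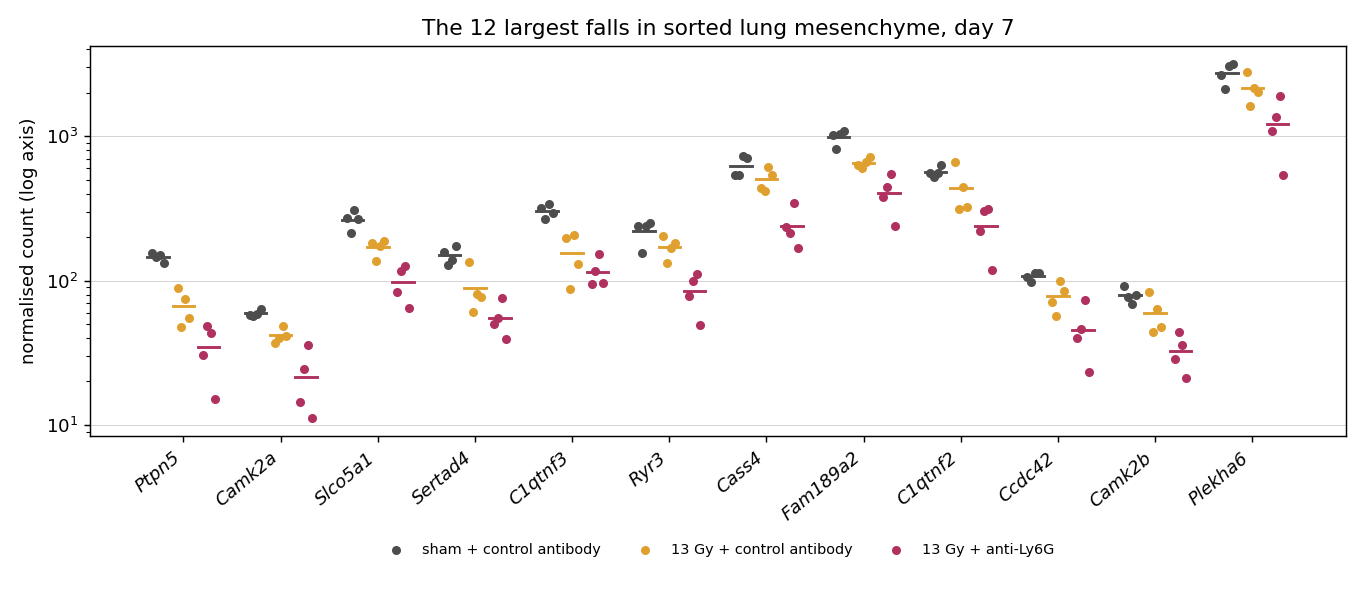
Normalised counts (log axis) of the 12 genes with the largest falls in sham, irradiated and depleted mesenchymal libraries; points are libraries and short lines are means. All depleted points lie below all sham points, for Ptpn5 at 15.1 to 48.6 against 131 to 156.

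Markers of the alveolar fibroblast, the lipid-handling fibroblast of the alveolar wall, were lower. Of 17 members 10 fell (58.8%, against 6.7% over all genes) and 0 rose, with a median of -0.47. The falls were 7 without depleted replicate 1 or 4 or sham replicate 3 or 4. The summed level of the 17 genes was 252996 to 356666 in sham and 180675 to 228175 in depleted libraries, with no overlap, but the mean log2 level over the same genes did overlap (11.88 to 12.37 and 11.50 to 11.95). Npnt, a matrix ligand of integrin alpha 8 beta 1, went from 19399.7, 15132, 21554 and 24159 to 11540.5, 13309, 14412 and 8873 (log2 -0.74 ± 0.155, adjusted p = 0.00552). Macf1, a cytoskeletal linker that supplies a large part of that sum, fell from 177090.0 ± 24521 to 109798 ± 12398 and the sodium channel Scn3a by 1.20 on the log2 scale (SE 0.255). Tcf21, a lineage transcription factor of these cells, had a log2 difference of -0.20 ± 0.138 (adjusted p = 0.369), and Pdgfra, the receptor that marks most lung fibroblasts, -0.14 ± 0.110 (adjusted p = 0.419). With the leukocyte covariate 3 of the 17 were lower, and with the pan-epithelial covariate 0.

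Transcription factors of the mesenchyme and the Hedgehog pathway also fell, 10 of 34 lower and 1 higher with a median of -0.25. The share lower was 29.4%, against 6.7% over all genes. Gli1, the read-out factor of Hedgehog signalling, went from 483, 527, 571 and 523 to 336, 419, 370.1 and 331 (log2 -0.53 ± 0.122, adjusted p = 0.00854), and the receptor Ptch1 fell by 0.47. Foxf2 fell from 713 ± 78.0 to 468 ± 41.9, Srf, the serum response factor, from 674, 701, 619.9 and 644 to 455, 435, 498 and 420.3 (log2 -0.55 ± 0.106, adjusted p = 0.00276), and Meox2 and Snai2 by 0.80 and 0.58 on the log2 scale. Osr1 was the member that rose (0.53 ± 0.103). Among 15 pericyte markers 4 fell (26.7%, against 6.7% over all genes) and Lamc3 rose (0.46). There were 2 falls without sham replicate 1 or after removal of the GC and length trend. The integrin Itga1 fell by 0.50 (SE 0.127), a call that the removal of this trend ended (adjusted p = 0.0518). Gucy1a1, a subunit of the nitric oxide receptor, fell by 0.65 (SE 0.140) and Pdgfrb, the receptor that recruits pericytes, from 4286, 4142, 3473 and 3496 to 3176, 3093, 2789 and 2311 (log2 -0.44 ± 0.111, adjusted p = 0.0143). The Pdgfrb call was lost when sham replicate 1 was left out (adjusted p = 0.0506). The smooth muscle myosin Myh11 had a difference of 0.32 ± 0.297 (adjusted p = 0.526). In the adventitial fibroblast list 3 of 17 rose (17.6%, against 8.51% over all genes), namely Il33, Ly6c1 (1.00) and Ly6a (0.82). Mfap5 and Cd34 were the 2 that fell (11.8%, against 6.7% over all genes). The Cd34 call ended without depleted replicate 1 or 4 or sham replicate 3 or 4 (adjusted p up to 0.0637 without 1 library).

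Markers of cells outside the gate moved with the groups, and their part in the results was not tested beyond the covariate fits. Of 10 tested neutrophil genes 6 rose (60%, against 8.51% over all genes) and 0 fell. The summed level of the list was 120 to 324 in sham libraries, 343 to 829 in depleted and 407 to 837 in irradiated ones. Ngp, a granule protein of immature neutrophils, was at 0, 3.31, 4.04 and 6.65 in sham and 23.6, 54.9, 34.8 and 96.8 in depleted libraries (log2 3.70 ± 0.600, adjusted p = 0.00119). The granule genes Ltf and Mmp8 rose by 2.82 ± 0.553 and 2.31 ± 0.425 and S100a8 by 2.90 ± 0.423. Csf3r, the receptor for granulocyte colony-stimulating factor, had 59.8, 107, 38.4 and 40.7 in sham, 87.7, 229.9, 189 and 74.4 in irradiated and 25.6, 31.5, 19.3 and 22.2 in depleted libraries. It was -2.37 ± 0.391 against irradiated (adjusted p = 0.00711) and -1.18 ± 0.391 against sham (adjusted p = 0.0614). Cxcr2, the receptor of Cxcl1 and Cxcl5 on mature neutrophils, was at 20.3, 23.2, 12.1 and 9.15, 21.7, 35.3, 30.5 and 23.2 and 3.07, 15.3, 6.76 and 13.1 in the same groups, and passed the test against irradiated (adjusted p = 0.0471) but not against sham (adjusted p = 0.202). The depleted libraries of Csf3r lay below all sham and all irradiated libraries.

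Of 13 tested macrophage genes 7 rose (53.8%, against 8.51% over all genes) and 0 fell. The rises were 4 without sham replicate 3 or depleted replicate 2, and 2 with the leukocyte covariate. The sums were 761 to 1954 in sham and 1817 to 3407 in depleted libraries. C1qc, a chain of C1q, went from 3.38 ± 1.73 to 15.5 ± 3.62. Of 14 general leukocyte genes 0 were called by limma, 0 by edgeR and DESeq2 and 5 had an unadjusted p under 0.05. With the replicate number in the limma fit 5 were higher. Leaving out sham replicate 2 gave 2 higher and leaving out depleted replicate 3 gave 1 lower. The sums overlapped (1182 to 1936 and 1323 to 2524). Of 20 blood endothelial genes 3 rose (15%, against 8.51% over all genes), with overlapping sums of 1906 to 4240 and 3134 to 5296. Without depleted replicate 1 or 2 or sham replicate 3 the rises were 1. They were 6 without depleted replicate 3 and 8 without sham replicate 2. With the pan-epithelial covariate 0 endothelial genes were higher and 2 lower. Lyve1, carried by lymphatic endothelium and some macrophages, rose from 30.4, 55.4, 34.3 and 15.8 to 274, 258, 142 and 256 (log2 2.82 ± 0.367, adjusted p = 0.000514). Of 12 tested pan-epithelial genes 6 rose (50%, against 8.51% over all genes) and 0 fell. The sums were 274 to 453 in sham libraries, 561 to 878 in depleted and 482 to 733 in irradiated ones. Krt18, a keratin of simple epithelia, went from 24.3, 19.9, 20.2 and 14.1 to 58.4, 45.9, 48.3 and 46.4 (log2 1.32 ± 0.226). The surfactant gene Sftpc had a difference of 0.43 ± 0.244 (adjusted p = 0.271) and 0 of 10 alveolar type 2 genes were called. The count was 3 without sham replicate 2 and 4 with the replicate number in the limma fit. edgeR called 0 and DESeq2 2, and 3 had an unadjusted p under 0.05 in the main fit. None of these markers was at 0 in all 8 libraries, and Ly6g, Camp, Stfa2l1, Marco, Cd48 and Cldn4 were under the limit on low values.

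The covariate fits bear on these markers. With the pan-epithelial covariate the number of higher members was 2 for the glucocorticoid and the unfolded protein response lists, 6 for senescence, 3 for matrix turnover and 0 for the ribosomal, neutrophil and macrophage lists, and 0 transcription factors of the mesenchyme were lower. Of the named genes, Saa3, Cxcl5, Cxcl1, Ccl7, Cxcl12, Il6, Il33, Ptgs2, Chl1, C3, Cfb, C4b, Cdkn1a, Eda2r, Psrc1, Phlda3, Mt2, Ddit4, Pdia6, Timp1, Mmp3, Ereg, Igfbp4, Gucy1a1 and Dglucy were called under every alternative in which they were tested, this covariate included. Because the covariate separates the groups, a call kept or lost under it does not tell where the RNA of a gene came from. The leukocyte covariate left 18 ribosomal genes higher and 6 transcription factors lower. It ended the calls of Fkbp5, Mfap5, Scn3a, Meox2, Snai2, Wnt2, C1qc, C1qtnf2 and Abcb1b, which no fit without 1 library ended.

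Against 8.51% higher and 6.7% lower over all genes, further lists held the following calls, and some cell type lists are not described. Of 34 replication-dependent histones 4 rose and 0 fell, and of 20 antigen presentation genes 1 rose and 0 fell. Of 28 cholesterol genes 3 rose and 2 fell, and of 24 immediate early genes 3 rose and 1 fell. Of 74 nuclear oxidative phosphorylation genes 7 rose and 0 fell. Of 14 mitochondrially encoded genes 0 rose and 4 fell (28.6%). The falls were 0 without depleted replicate 1 or sham replicate 1 or after removal of the GC and length trend. Of 34 interferon-stimulated genes 5 rose and 1 fell, the rises led by Zbp1 (1.81 ± 0.209), a sensor of nucleic acids, and Bst2 (tetherin; 0.99 ± 0.181), and the fits that left out sham replicate 3 or depleted replicate 2 had 2 rises, those that left out depleted replicate 1 or sham replicate 4 had 3. The RNA-binding antiviral gene Ifit2 was the member that fell, from 506, 506, 497 and 501 to 348, 319, 349.8 and 334 (log2 -0.57 ± 0.0602, adjusted p = 1.61e-05). Without depleted replicate 2 the number that fell was 2. Of 34 DNA break sensing and repair genes Mdc1 rose and Atr, a checkpoint kinase, fell. Of the fits without 1 library, a member rose only without depleted replicate 3 or sham replicate 2, and 0 fell without sham replicate 3, 2 without depleted replicate 3 and 3 without sham replicate 2. Of 31 cell cycle genes 5 rose (16.1%) and 0 fell, with Top2a at 7.10, 25.7, 18.2 and 12.5 in sham and 32.8, 33.3, 29.0 and 37.3 in depleted libraries, a call that ended without depleted replicate 1 or 4 or sham replicate 1 (adjusted p up to 0.0553 without 1 library). The cell cycle count was 1 without depleted replicate 1, 2 without sham replicate 1 or 4 and 3 without depleted replicate 2 or 4 or sham replicate 3. Of 22 cytosolic heat shock chaperones 4 rose (18.2%; Hspb8, Hspb1, Stip1 and Bag3) and 0 fell, 7 and 1 with DESeq2. Of 25 fatty acid genes 7 rose (28.0%) and 0 fell, the rises led by Fabp4, a lipid chaperone (2.10 ± 0.283). Outside this list, Angptl4, an inhibitor of lipoprotein lipase listed with growth factors and glucocorticoid-responsive genes, rose by 0.95 ± 0.157.

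The same contrast in the epithelial fraction of the same 3 groups gives a reference for what the mesenchyme did. The difference of the responses was called for 786 of 15092 genes (5.21%), 458 with the mesenchyme above and 328 below, and for 409 without sham replicate 3 and 489 without depleted replicate 1. Cxcl5 had a log2 difference of -0.10 ± 0.471 in the epithelium, so the responses differed by 5.88 ± 0.666 (adjusted p = 4.06e-06). The responses of Ptx3 differed by 4.45 ± 0.385, of Lcn2 by 4.62 ± 0.573, of Hp by 3.65 ± 0.440 and of Gfra1, a receptor subunit for GDNF, by 3.12 ± 0.454. Gfra1 went from 6.09, 22.3, 12.1 and 8.32 to 140.4, 93.6, 91.8 and 92.7 in the mesenchyme and had a change of 0.01 in the epithelium. For other top genes the difference of responses did not pass the test. Saa3 rose by 6.08 ± 0.470 in the epithelium (difference of responses 0.86 ± 0.665, adjusted p = 0.519), Serpina3n by 3.59 (0.11 ± 0.539, adjusted p = 0.943) and Chl1, an adhesion molecule, by 4.18 (0.37 ± 0.551, adjusted p = 0.774). In the mesenchyme Chl1 went from 25.4, 14.9, 21.2 and 12.5 to 641, 395, 319.9 and 465.

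On the other side, 8 of 35 p53 targets rose less in the mesenchyme than in the epithelium and 2 rose more. Phlda3, a p53 target that restrains Akt, went from 276, 248, 274 and 305 to 512, 512, 561 and 561 in the mesenchyme (log2 0.96 ± 0.0789) and rose by 3.84 ± 0.108 in the epithelium, a difference of responses of -2.88 ± 0.152 (adjusted p = 6.52e-12). Ckap2 rose more in the mesenchyme, by 2.50 ± 0.362, and for Cdkn1a the difference was -0.50 ± 0.227 (adjusted p = 0.221). Dglucy, a D-glutamate cyclase of mitochondria, and the efflux pump Abcb1b also rose less in the mesenchyme, with differences of -2.05 ± 0.186 and -2.24 ± 0.412. Tgfbi, a secreted matrix protein, rose by 1.10 ± 0.161 in the epithelium and stood at 1609, 1494, 1224 and 1328 in sham and 1069.9, 941, 891 and 722 in depleted mesenchyme (log2 -0.65 ± 0.188, adjusted p = 0.0386). The mesenchymal Tgfbi call ended without any 1 of the sham libraries or depleted replicates 2, 3 and 4 (adjusted p up to 0.105 without 1 library), while the difference of responses was -1.75 ± 0.227 (adjusted p = 8.79e-05). Rasd2, a small GTPase, was the other gene chosen on this side, and its mesenchymal call ended without depleted replicate 1 or sham replicate 1 or sham replicate 3 or sham replicate 4 (adjusted p up to 0.0755 without 1 library).

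**Figure D5:**
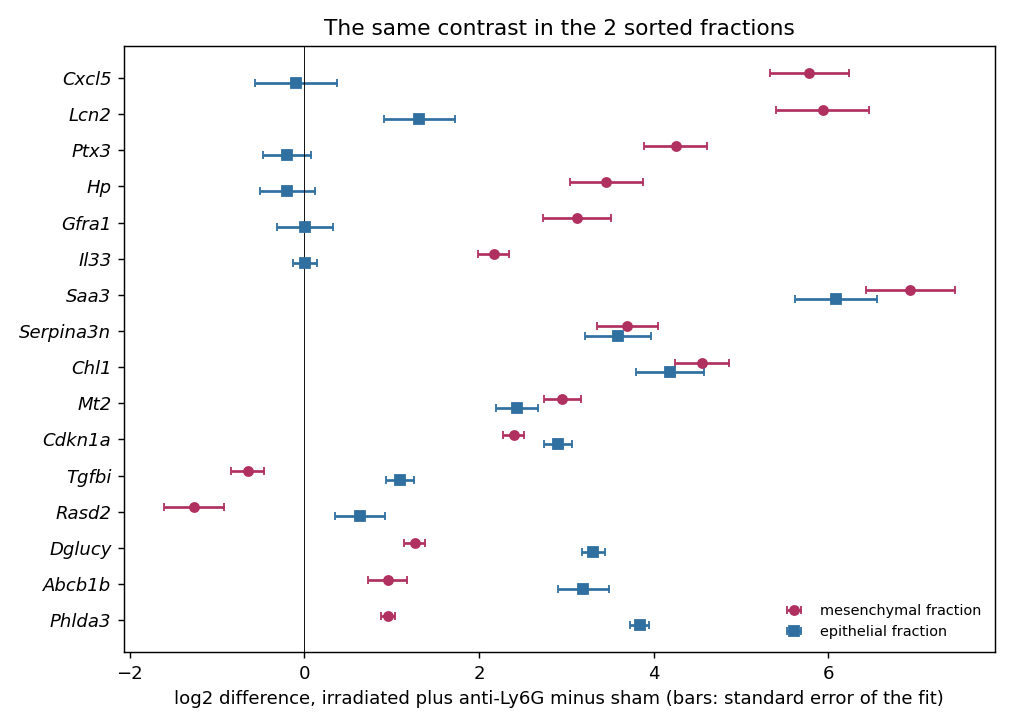
Log2 difference between depleted and sham libraries in the mesenchymal (circles) and epithelial (squares) fraction for 16 genes, with bars for the standard error of the fit. The markers lie apart for Cxcl5 (5.78 and -0.10) and Phlda3 (0.96 and 3.84) and close together for Serpina3n (3.70 and 3.59).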

How the data were processed

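RNA from sorted mesenchymal lung cells was sequenced after ribosomal RNA depletion, with 4 libraries each from sham, irradiated and depleted mice. Per the submitters' processing notes, cutadapt 1.5, STAR 2.2.2a, SAMtools 1.8, RSEM 1.3.0, DESeq2 (version not given) and the GRCm38 build were used. The role of each is not given in the sources used here. The authors deposited normalised counts (a coverage-type signal: gene counts divided by 1 factor per library). Within a tolerance of 0.001 of a read, wider for very high counts, all values were whole multiples of the value of 1 read. Reads were recovered from these multiples. In sham replicate 3 and depleted replicate 4 the value of 1 read is so close to 1 that this tells little about the scale. Gene symbols were matched for 48435 of 48795 identifiers.

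Values were tested as log2(normalised count + 1) with limma 3.58.1 (trend and robust options, R 4.3.3), all 3 mesenchymal groups in 1 fit, over genes with a value of at least 10 in at least 4 libraries. Fold changes on this scale understate the change of low genes. A gene was called at a Benjamini-Hochberg adjusted p under 0.05 over all tested genes, and SE is the standard error of the fit. The difference between fractions was an interaction over 24 libraries, taken as independent, and 15092 genes. edgeR 4.0.16 and DESeq2 1.42.0 ran on the recovered reads as alternatives, beside other pseudocounts (0.5 and 8), filters, scalings, covariates and fits without each library. Only the main limma fit of depleted against sham was tried on simulated counts, and the other fits were not. Intervals on read ratios cover counting error only. The limma p-values set a difference of group means against the spread among these libraries, which the fit moderates across genes.

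The comparison, its gene lists and tests were chosen with earlier results of these data known. Named genes were the 12 largest rises and falls without overlap and with a mean of at least 50 in the higher group, called members of each list (up to 5), the 5 leading genes in each direction that also differed from irradiated or between fractions, abundant markers, and Ly6g, Epcam, Ptprc, Pecam1 and Cdkn1a; other genes, among them Tnf, Nfkbiz, Cxcl10, Nr3c1, Tsc22d3, Zbtb16, Ddit3, Csf3r and Cxcr2, were chosen after their values were seen, and not every gene of the rule is printed.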

Additional observations from a re-analysis of the deposited data

Results flagged for a closer look

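For 43 of the 155 named and tested genes the response to irradiation plus anti-Ly6G differed between the mesenchymal and the epithelial fraction. The test was that of the difference (limma, adjusted over all genes tested in both tables), which called 786 of 15092 genes (5.21%). Some genes were named because this test called them, so the count of 43 is not evidence about the named genes as a set. The values that follow are the mesenchymal minus the epithelial difference on the log2 scale. Well above the epithelial response stood Cxcl5 (5.88), Lcn2 (4.62), Ptx3 (4.45), Hp (3.65), Gfra1 (3.12), Ckap2 (2.50), Top2a (2.49), Ptgs2 (2.28), Il33 (2.16), Ddit4 (2.03), Fabp4 (1.99), C6 (1.84), Inhbb (1.68) and Asns (1.58). Smaller differences in the same direction were those of Krt18 (1.31), Il1r1 (1.27), Sod2 (1.18), Egfr (0.97), Il6 (0.91), Hmox1 (0.82), Nfil3 (0.57), Pdia6 (0.47), Rps26 (0.47), Tgfbr2 (0.43) and Rpl32 (0.39). Below the epithelial response stood Phlda3 (-2.88), Abcb1b (-2.24), Dglucy (-2.05), Rasd2 (-1.90), Tgfbi (-1.75), Ryr3 (-1.62), Chst8 (-1.58), Ccng1 (-1.43), Cd34 (-1.36), Fam189a2 (-1.29), Itga1 (-1.09) and Gdf15 (-1.03), and, by less, Npnt (-0.97), Timp3 (-0.81), Cd55 (-0.80), Ccn1 (-0.72), Bax (-0.72) and Nr3c1 (-0.50). The 2 fractions were normalised in separate tables, so these are differences of responses and not of levels.

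A single library stood apart from the other 3 of its group in 11 of the 310 groups of 4 that were looked at, and chance alone gives about 1 in 20. Depleted replicate 1 had the highest normalised count for Gfra1 (140.4). Depleted replicate 1 had the lowest normalised count for Rps27l (226). Depleted replicate 2 had the highest normalised count for Il1b (131) and Ptprc (390.5). Depleted replicate 3 had the lowest normalised count for Lyve1 (142). Depleted replicate 4 had the highest normalised count for Saa1 (253), Hp (2399) and Mdm2 (1012). Depleted replicate 4 had the lowest normalised count for C1qc (10.1). Sham replicate 2 had the highest normalised count for Serpina3g (60.4). Sham replicate 2 had the lowest normalised count for Ryr3 (156). The calls of Saa1 and Hp remained in every fit that left out 1 library.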

How the results depend on the processing

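Depth limits genes under about 3 reads, and 4 libraries a side limit small differences. Leaving out 1 library gave 1571 to 2732 genes for depleted against sham (1660 without depleted replicate 1, 1571 without sham replicate 3), 182 to 806 for depleted against irradiated and 409 to 811 for mesenchyme minus epithelium. The leukocyte covariate gave 1488 genes and the pan-epithelial covariate 152. For depleted against irradiated the 2 groups alone gave 291 genes and DESeq2 785, and why was not tested. Of 155 named and tested genes 137 were called, and 126 stayed called without any 1 library. Counting only alternatives in which a gene was tested, 115 stayed called under all but the pan-epithelial covariate and 25 under that too. Equal medians, TMM factors, and pseudocounts of 0.5 and 8 changed no named call or direction. The sign of the log2 difference turned without sham replicate 2 for Il1b (0.12; range without 1 library -0.43 to 0.12), without depleted replicate 3 for Vcam1 (-0.016; range -0.016 to 0.20), and with the leukocyte covariate for Tnf (-0.035) and Ptprc (-0.37). With the pan-epithelial covariate it turned for Tnf (-0.79), Col13a1 (0.15), Pdgfra (0.16), Tcf21 (0.34), Meox2 (0.078), Snai2 (0.039), Myh11 (-0.46), Ptprc (-1.38), Pecam1 (-0.83), Epcam (-0.90), Sftpc (-0.80), Abcb1b (-0.041) and Rasd2 (0.025); the cause was not tested. Sham and depleted libraries came from different mice. The correlations of same-numbered sham and depleted libraries were -0.027, 0.10, 0.048 and -0.049, and not every library correlated best with its own number. Whether the same number in the 2 fractions marks the same mouse was not tested. With the replicate number as a term of the fit, depleted against sham gave 2697 genes and depleted against irradiated 548. For mesenchyme minus epithelium a block instead joined same-numbered libraries of the 2 fractions in a group (correlation 0.0895) and gave 1058. In depleted against sham the replicate term called 11 endothelial, 11 macrophage, 7 Notch, 5 leukocyte and 4 alveolar type 2 genes higher. Without that term the counts were 3, 7, 3, 0 and 0. The term also called Csf3r, Pecam1, Epcam and Sftpc and ended the call of Plekha6.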

Other observations

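Markers of the thin alveolar and airway epithelium did not move as 1 group. Of 7 alveolar type 1 genes 4 rose (57.1%) and 1 fell (14.3%), against 8.51% and 6.7% over all genes. The rises were 2 without any of depleted replicates 1, 2 and 4 and sham replicates 3 and 4. Of 6 club and secretory genes 3 rose (50%). The count was 2 without depleted replicate 1, 2 or 4 or sham replicate 1 or 3, and 5 without depleted replicate 3. For the ciliated cell genes the summed level was 628 to 793 in sham and 295 to 559 in depleted libraries, whereas the mean log2 level was 2.92 to 3.26 in sham and 3.62 to 4.00 in depleted libraries, so the sum and the mean differ in direction. Of the 2 tested members Tppp3, a tubulin-binding protein, fell, and the other members were under the limit on low values. Wt1 and Rspo1 were the 2 of 12 mesothelial genes that rose (16.7%, against 8.51% over all genes). The count was 1 without depleted replicate 1 or 2 or sham replicate 3.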
